A study of Ovis aries with 20 samples.

Results

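Tracheal tissue of sheep at day 100 was compared with tracheal tissue at day 80, in animals without disease (WT) and in animals with cystic fibrosis (CF) together. The series holds 20 RNA-seq libraries, 2 for each genotype at days 65, 80, 100, 120 and 147, and the comparison takes the 8 of days 80 and 100, with 4 libraries a side. Day 147 is labelled as birth, so the earlier ages are days of gestation. The 4 groups were WT at day 80, WT at day 100, CF at day 80 and CF at day 100, all untreated as far as the labels say. The labels call the tissue epithelial and the animals healthy or CF donors. The labels give no disease allele, breed or number of pregnancies. Of the 8 samples, 7 identifiers are distinct: the 2 WT libraries of day 100 carry the same one and may come from 1 animal, and CF day 100 replicate 2 carries that of a WT library of day 65. The p-values therefore measure the spread between these libraries, part of which may be technical.

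The tracheal wall is a tube of epithelium on a stroma of fibroblasts, vessels, nerve, cartilage and smooth muscle. In its epithelium, basal cells are the stem cells, multiciliated cells beat mucus out of the airway, and secretory and gland cells release mucus and antimicrobial proteins. Multiciliated cells are made when Geminin-family and forkhead regulators switch on the genes of the axoneme, the motor-bearing core of a cilium. CFTR, the gene mutated in cystic fibrosis, encodes an anion channel of the apical membrane. In whole tissue, fewer cells of a type and less RNA per cell of that type cannot be told apart.

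Library make-up differed within and between the ages, and each result below has to be read beside it. Total counts ran from 48957666 to 87651829 per library. Of the day 80 libraries, WT replicate 2 held the thyroid hormone precursor gene TG at 11% of its counts, with 13 thyroid genes at a summed 111212 CPM (counts scaled to the TMM-adjusted library total) against 40.2 to 249 in the other 7 libraries. In CF day 80 replicate 1, 32 skeletal muscle genes summed to 46990 CPM against 51.5 to 116 elsewhere. The same pair had the lowest epithelial levels: 25 epithelial genes summed to 2793 CPM in WT day 80 replicate 2 and 1647 in CF day 80 replicate 1, and to between 4145 and 7860 in the other 6. Both WT libraries of day 100 were low in stroma. Their 41 fibroblast and matrix genes summed to 10498 and 7593 CPM, against 37624 to 57590 in the other 6, and their 20 endothelial genes to 218 and 175 CPM, against 622 to 3430. Smooth muscle genes summed to 301 CPM in WT day 100 replicate 2 and to 2495 in replicate 1. The defining epithelial markers EPCAM and CDH1 were present in every library, and so were all 20 endothelial and all 41 fibroblast genes.

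**Figure D1:**
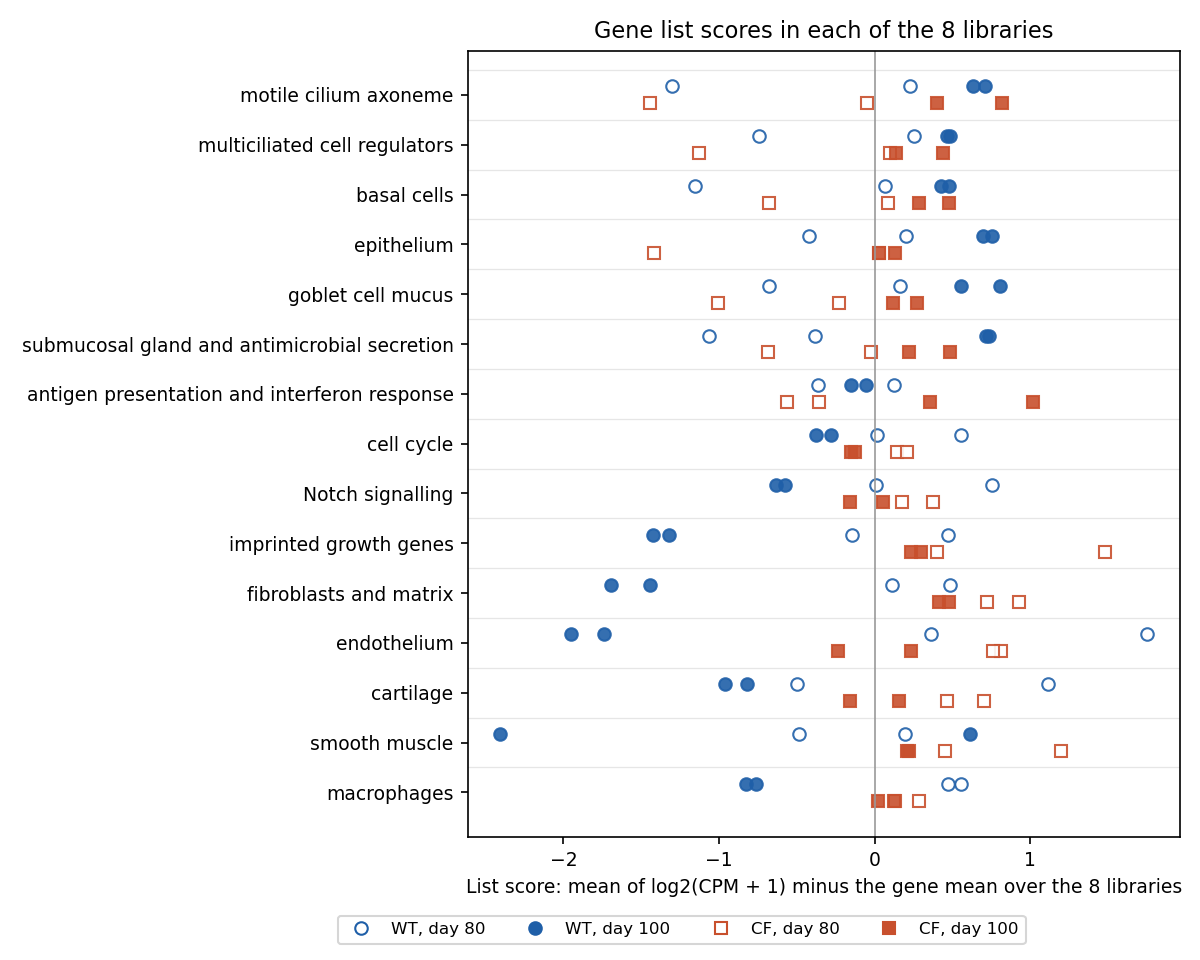
Score of 15 gene lists in the 8 libraries: the mean over a list's members of log2(CPM + 1), centred for each gene on the 8 libraries (x axis, log2 units), with WT as circles, CF as squares, day 80 open and day 100 filled. The WT libraries of day 100 sit far to the left for fibroblasts and endothelium, and 1 day 80 library of each genotype sits far to the left for epithelium and the cilium axoneme.

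The planned test, a model of the 8 libraries with age and genotype as terms, called no gene. The smallest adjusted p among 19094 genes was 0.116, and 3742 genes had an unadjusted p under 0.05 (19.6%). In that model an unequal change in WT and CF counts as spread. DESeq2 on the same libraries called 997 genes higher and 1659 lower at day 100. Without the 2 day 80 libraries that hold thyroid or skeletal muscle, the same edgeR model called 1577 of 19483 genes higher (8.09%) and 1940 lower (9.96%). That fit keeps 1 day 80 library a genotype, so its spread comes largely from the day 100 pairs. The WT pair of day 100 may come from 1 animal, so part of that spread may be technical.

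A model of all 20 libraries, with 1 coefficient for each of the 10 groups, estimated the spread from every pair and tested the mean of the WT and CF changes. It called 648 of 20097 genes higher at day 100 (3.22%) and 1145 lower (5.70%), and is the fit behind "rose" and "fell" below. It was listed as an alternative and took the place of the planned fit for naming genes after that fit had called none. Without the 2 libraries of mixed tissue, the same model of the series kept the sign of all 648 and of 1140 of the 1145. Far fewer of them were called in that fit, which has 1 day 80 library a genotype. The genes had been called with those 2 libraries included. The 4 libraries of day 100 all lay above the 4 of day 80 for 1283 genes (6.38%) and all below for 1213 (6.04%), and 564 of the 648 and 532 of the 1145 were among them. Only 32 of the genes higher and 105 of those lower were called in every one of 8 fits that each left out 1 library. Leaving out CF day 100 replicate 1 left 33 and 108 calls, the fewest. A further fit summed replicates only where both of a group carry the same identifier, which held for WT at day 100 and CF at day 147. It called 41 genes higher and 153 lower. CF day 100 replicate 2 and the WT day 65 library of its identifier stayed separate there. Changes are given below as log2 differences, day 100 minus day 80, with the standard error (SE). The median over all genes was -0.11. Counts of list members below stand beside these shares of all genes: 3.22% rose and 5.70% fell. Without overlap, 6.38% were higher and 6.04% lower.

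CFTR rose on the mean of the genotypes. It stood at 14.7 and 10.2 CPM in the WT libraries of day 80 (replicates 1 and 2 in that order, also below) and 25.4 and 31 in WT at day 100. In CF it was 4.3 and 8.36 CPM at day 80 and 19.9 and 17.4 at day 100. Every day 100 library was above every day 80 library, and the lowest value was in the CF library that holds muscle. The change was 1.37 ± 0.34 (adjusted p = 0.0277), 1.18 in WT and 1.56 in CF, and it was called in 6 of 15 alternatives (adjusted p from 0.00149 to 0.251). CFTR reads were present in CF throughout, so the level does not check the genotype label. At day 65 the mean had been 22 ± 11.3 CPM (SD, n = 4), near the 23.4 ± 6.04 of day 100 and above the 9.38 ± 4.31 of day 80. The deposited tables place the gene at chr4:50644000-50864925, in a genome build that no label or header names.

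Basal cell genes were among those higher at day 100. Of 16 basal cell genes tested, 3 rose and 1 fell, with a median of 0.87. Without the 2 libraries of mixed tissue the median was 0.49. TP63, the master regulator of basal cells, was at 35.8 and 15.9 CPM in WT at day 80 and 123 and 130.0 at day 100. In CF it was at 22.4 and 55.4 CPM, then 114 and 132. The 4 libraries of day 100 lay close together, and the spread was all at day 80. The change was 1.97 ± 0.35 (adjusted p = 0.00823), 2.29 in WT and 1.66 in CF. It held in 14 of 15 alternatives. COL17A1, the collagen that anchors basal cells to the basement membrane, rose by 1.52 ± 0.38, and ITGB4, the integrin of the same junction, by 0.87 ± 0.23. KRT5, the basal keratin, was at 479.7 and 84 CPM in WT at day 80 and 1147 and 897 at day 100, and in CF at 198 and 411 CPM, then 586 and 680.3. Its groups did not overlap, but its change of 1.46 ± 0.45 missed the threshold (adjusted p = 0.0612). The member that fell, NGFR, is also a receptor of Schwann cells and other nerve tissue.

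The general epithelial genes moved less. Of 25, 3 rose and none fell, with a median of 0.67, and 23 had a positive change. The 3 were GRHL2, GRHL1 and CDH3: GRHL2, a regulator of epithelial junctions, rose by 1.24 ± 0.32 (adjusted p = 0.0312). EPCAM was at 149 and 304 CPM in WT at day 80 and 285 and 305 at day 100, and at 58.3 and 136 CPM, then 174 and 173 in CF. Its highest day 80 value, in the library that holds thyroid, reached the highest day 100 values, and its change of 0.61 ± 0.28 missed the threshold. Without the 2 libraries of mixed tissue the median of the 25 genes was 0.30. The summed epithelial level moved with the comparison, and its part in the changes of basal, ciliated and secretory genes was not tested.

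All 71 genes of the motile cilium axoneme that were tested had a positive change, with a median of 1.09 (0.96 in WT and 1.20 in CF) against -0.11 over all genes. Of these, 28 rose and none fell. In all, 35 were higher in all 4 day 100 libraries than in all 4 of day 80, where 6.38% of all genes were. DNAH5, a heavy chain of the outer dynein arm that drives ciliary beating, was at 80.2 and 45.6 CPM in WT at day 80 and 203 and 199.6 at day 100. In CF it was at 26.9 and 88.8 CPM, then 225 and 179. The 4 values of day 100 lay within a narrow band and the groups did not overlap. DNAH5 rose by 1.74 ± 0.36 (adjusted p = 0.0143), by 1.68 in WT and 1.80 in CF. RSPH4A, of the radial spoke head, rose by 1.61 ± 0.32, CFAP43, a cilium and flagellum protein, by 1.62 ± 0.33, and ENKUR by 1.47 ± 0.30. At the other end of the list RSPH9 changed by 0.48 ± 0.53 and did not pass.

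Part of the size of the axoneme change moved with the libraries of mixed tissue. The summed level of the 71 genes was 2067 CPM in each of the day 80 libraries that hold thyroid or muscle, 7686 in the other WT library of day 80 and 5306 in the other CF one. The day 100 libraries held 9753 and 8726 CPM in WT, and the CF pair 9598 and 7215. The range at day 100 thus overlapped the cleaner WT library of day 80. Without the 2 mixed libraries the median change was 0.57. The model of the 6 remaining libraries called 30 axoneme genes higher and none lower, while the model of the 18 remaining libraries of the series called 4. Leaving out WT day 100 replicate 2 or CF day 100 replicate 1 left no axoneme gene called in the 20-library model, with medians of 1.14 and 0.97. Summing the replicate pairs of a shared identifier also left none.

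Of 15 regulators of multiciliated cells, 3 rose and none fell, with a median of 0.67. GMNC, the Geminin-family gene at the top of the cascade, was at 5.72 and 4.03 CPM in WT at day 80 and 14.6 and 21.1 at day 100, and at 2.84 and 7.21 CPM, then 14.4 and 16.4 in CF. It rose by 1.74 ± 0.48 (adjusted p = 0.0414). MYB rose by 1.31 ± 0.36, and RFX3, a transcription factor of ciliary genes, by 1.10 ± 0.27. The defining regulators FOXJ1 and MCIDAS did not pass. FOXJ1 stood at 670.5 and 112 CPM in WT at day 80, 734 and 639 in WT at day 100, 139.5 and 414 in CF at day 80 and 520.1 and 384 in CF at day 100. Its low values were those of the 2 libraries of mixed tissue, and the other 6 overlapped. MCIDAS had a change of 0.67 ± 0.45, which went to -0.03 without those 2 libraries. Without them the list's median was 0.14.

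PIGR had the largest change of the gland and antimicrobial genes. PIGR, the receptor that carries polymeric immunoglobulin across the epithelium, was at 3.46 and 4.48 CPM in WT and 2.5 and 3.7 in CF at day 80. At day 100 it reached 240.1 and 470.5 CPM in WT and 46.1 and 22.7 in CF. The groups were far apart in both genotypes, and the WT values were the higher ones at day 100. PIGR rose by 4.98 ± 0.45 (adjusted p = 0.00152), by 6.48 ± 0.69 in WT and 3.47 ± 0.60 in CF, and passed in 15 of 15 alternatives (adjusted p from 1.1e-31 to 0.0193). The difference between the genotypes, -3.01 ± 0.79 for CF minus WT, did not pass (adjusted p = 0.236). In the planned 8-library fit its adjusted p was 0.116. PIGR lies at chr12:3986944-4004957 in the deposited tables.

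Of 15 gland and antimicrobial genes tested, PIGR among them, 5 rose, 1 fell and 9 did not pass, with a median of 1.02. Without the 2 libraries of mixed tissue the 6-library fit called 3 higher and 1 lower, with a median of 0.67. LTF, the iron-binding antimicrobial lactoferrin, was at 12.9 and 2.32 CPM in WT at day 80 and 72.9 and 51.5 at day 100, and at 13 and 7.72 CPM, then 42.4 and 20.8 in CF. Its 4 day 100 values lay above all 4 of day 80, and it rose by 2.32 ± 0.44 (adjusted p = 0.0104), a call that held in 13 of 15 alternatives. CCL28, a chemokine that draws IgA-secreting cells to mucosa, rose by 1.84 ± 0.35, and BPIFB1, a secreted antibacterial protein, by 2.14 ± 0.44. BPIFB1 overlapped between the ages, since CF day 80 replicate 2 was at 13.8 CPM and CF day 100 replicate 2 at 13.3. FOXC1, the member that fell (by 0.76 ± 0.21), is a transcription factor also made in mesenchyme and cartilage. LYZ and BPIFA1 stood at 3.38 CPM or less in every library and did not pass.

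Further secreted or membrane genes were named for the size of their rise, among the 15 largest with a gene symbol and no overlap. GP2, a glycoprotein that binds bacteria, was at 3.95 and 1.04 CPM in WT at day 80 and 121 and 43.6 at day 100, and at 0.717 and 1.97 CPM, then 10.9 and 5.99 in CF. It rose by 3.85 ± 0.77, and every day 100 library exceeded every day 80 library. The complement genes C9 and CFHR5 rose by 2.43 ± 0.47 and 2.86 ± 0.59, and ADAM28, a membrane protease, by 2.39 ± 0.32. C9 was at 3.86 and 2.47 CPM in WT and 1.78 and 2.1 in CF at day 80, and at 18.7 and 21.3 in WT and 9.85 and 7.94 in CF at day 100. SFTPD, the collectin surfactant protein D, rose by 2.6 ± 0.41. It was at 12.3 and 11.7 CPM in WT at day 100 but at 2.65 and 2.16 in CF, against 0.462 and 1.89 in CF at day 80. The difference of the changes, CF minus WT, was -3.15 ± 0.80 and did not pass (adjusted p = 0.232).

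Mucus genes of goblet cells showed 3 rises among 18, a median of 0.88 and no fall. ERN2, a stress sensor of mucin-making cells, rose by 2.16 ± 0.57, and GALNT12, which starts sugar chains on mucins, by 0.69 ± 0.19. FCGBP, a mucus protein, was at 154 and 57.5 CPM in WT at day 80 and 727 and 1169.5 at day 100, and at 23.7 and 124 CPM, then 103 and 91.4 in CF. It was called on the mean of the genotypes at 1.78 ± 0.45, with 3.16 ± 0.67 in WT and 0.40 ± 0.62 in CF, and its CF ranges overlapped. The gel-forming mucins MUC5AC and MUC5B were at most 1.61 CPM in every library and did not pass, nor did SPDEF, the goblet cell regulator (0.91 ± 0.57). The club cell secretoglobin SCGB1A1 was at most 0.456 CPM in every library. Of 12 club and secretory genes, PIGR alone rose. Over the fits that each left out 1 library, the count called higher ran from 0 to 10 for epithelial genes, 1 to 9 for basal cells, 0 to 6 for regulators of multiciliated cells, 0 to 7 for goblet cells and 1 to 7 for gland genes. Leaving out CF day 100 replicate 1 gave the lowest count in each of these lists, as did other libraries in all but the gland list.

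**Figure D2:**
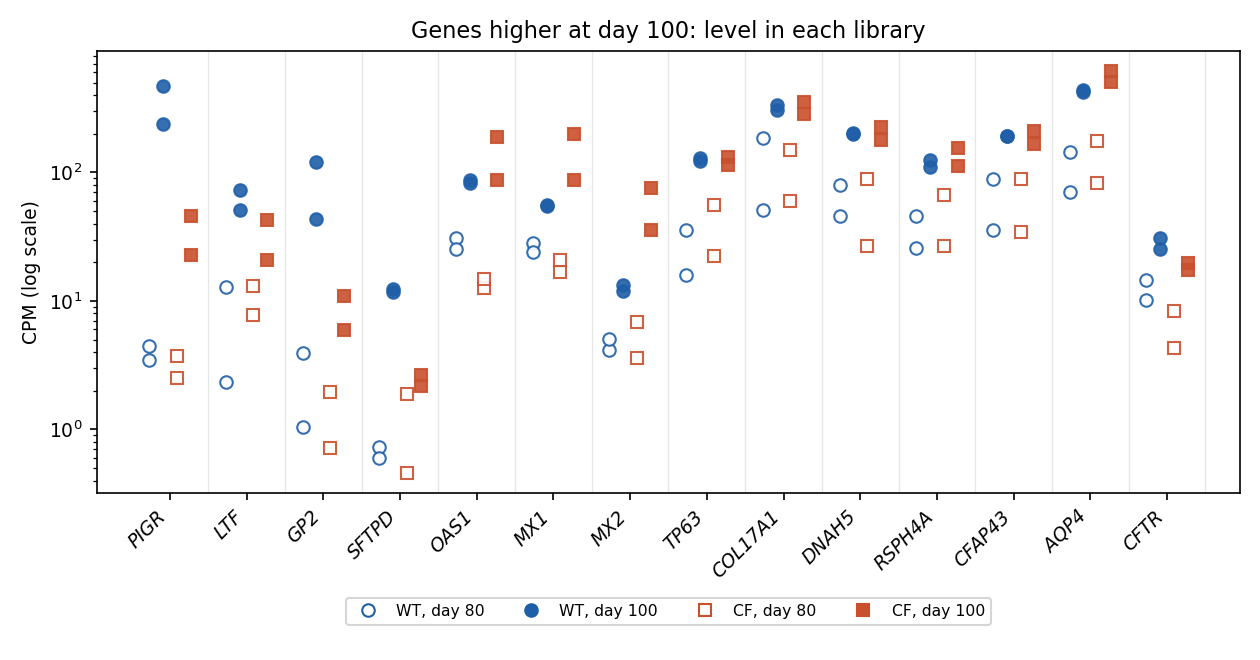
Levels of 14 genes named for their rise, in each of the 8 libraries (y axis, CPM on a log scale), with WT as circles, CF as squares, day 80 open and day 100 filled. The filled symbols lie above the open ones for each gene shown, and a CF library of day 100 holds the top value of OAS1, MX1 and MX2.

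Some interferon-response genes rose, with the top values in CF day 100 replicate 1. Of 26 genes of antigen presentation and interferon response, 6 rose and none fell, with a median of 0.52 (0.21 in WT and 1.14 in CF). MX1, an antiviral GTPase, was at 28.3 and 23.9 CPM in WT at day 80 and 54.6 and 56.2 at day 100, and at 16.8 and 21 CPM, then 199.9 and 87.5 in CF. Each genotype moved upwards without overlap, and CF day 100 replicate 1 held the top value. MX1 rose by 2.01 ± 0.26 (adjusted p = 0.00266) and held in 14 of 15 alternatives. OAS1, which senses double-stranded RNA, rose by 2.47 ± 0.32 and held in 15, and MX2 rose by 2.43 ± 0.36 and held in 14. IFIH1, the cytosolic RNA sensor MDA5, rose by 0.96 ± 0.21, and ISG15, a ubiquitin-like modifier, by 2.09 ± 0.52, the last with overlapping values. The changes in CF were larger, at 2.93 ± 0.38 for MX1 against 1.09 ± 0.36 in WT, but the difference of 1.84 ± 0.51 did not pass (adjusted p = 0.268). B2M, the light chain of class I molecules, had a change of 0.37 ± 0.18 that did not pass. OAS1 is not in the list of 26. Over the fits that each left out 1 library, the list had between 2 and 8 genes called higher; 2 were left without WT day 100 replicate 2, without CF day 80 replicate 1 or without CF day 100 replicate 1, and the last had the lowest median, 0.34.

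Among 24 genes of ion and water transport, 4 rose and none fell, while the median was -0.29 (-0.62 in WT and 0.58 in CF). Besides CFTR, the 4 were the water channels AQP4 and AQP3 and the calcium-activated chloride channel ANO1. Summed over the 24 genes, the library that holds thyroid stood at 3216 CPM and the other day 80 libraries at 632 to 820. The day 100 libraries stood at 1254 to 1409 CPM. AQP4 was at 143 and 71.1 CPM in WT at day 80 and 436 and 422 at day 100, and at 83.4 and 176 CPM, then 617 and 509 in CF. It rose by 2.06 ± 0.38 (adjusted p = 0.00919), AQP3 by 1.33 ± 0.26 and ANO1 by 0.98 ± 0.20. The groups of all 3 were without overlap, and none of the 4 was called without CF day 100 replicate 1. The subunits of the epithelial sodium channel did not pass: SCNN1A changed by 0.65 ± 0.64, SCNN1B by -1.56 ± 0.68 and SCNN1G by -0.98 ± 0.84. SCNN1B was at 237 CPM in the library that holds thyroid and between 2.82 and 11.7 CPM in the other 7. Of 10 ionocyte genes, ATP6V1B1, a proton pump subunit, rose by 1.57 ± 0.41, and FOXI1, the ionocyte regulator, was at most 2.22 CPM, with no read in either CF library of day 80.

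Endothelial genes fell on the mean of the genotypes, with the larger changes in WT. Of 20, 16 fell and none rose, with a median of -2.22 (-3.41 in WT and -0.92 in CF). In all 4 day 100 libraries 7 were lower, where 6.04% of all genes were. CLDN5, the tight junction protein of vessels, was at 4.41 and 2.59 CPM in WT at day 80 and 0.259 and 0.365 at day 100, and at 5.64 and 7.75 CPM, then 1.43 and 1.21 in CF. It fell by 2.91 ± 0.46 on the log2 scale (adjusted p = 0.00519), a call that held in 15 of 15 alternatives. SOX17, a regulator of arterial identity, was at 10.1 and 6.84 CPM in WT and 8.51 and 6.92 in CF at day 80, and at 0.739 and 0.251 in WT and 1.46 and 2.28 in CF at day 100. Its change was -3.07 ± 0.52, that of SOX18 -2.67 ± 0.47, that of EGFL7 -2.33 ± 0.42 and that of PECAM1 -2.18 ± 0.45. The CF libraries had 254 and 170.3 CPM of PECAM1 at day 80 and then 82.7 and 133, lower in both libraries but with a change in CF of -0.98 ± 0.61. The library that holds thyroid was the highest of the 8 for PECAM1, at 314 CPM, and PROX1, the lymphatic regulator at the end of the list, did not pass (-0.49 ± 0.43). Without the 2 libraries of mixed tissue the median was -1.75 in the 6-library fit, which called 12 of the 20 lower. Over the fits that each left out 1 library, the 20-library model called between 1 and 18, with 1 left without CF day 100 replicate 1 (median -2.06) and 3 without WT day 100 replicate 2.

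Notch signalling, which acts in vessels as well as in epithelium, showed 5 falls among 15 genes and no rise. The 5 were HES5, HEYL, HEY2, DLL4 and NOTCH4, with a list median of -0.50. DLL4, the Notch ligand of arterial endothelium, was at 17 and 44.7 CPM in WT at day 80 and 5.25 and 2.44 at day 100, and at 22.2 and 14.5 CPM, then 8.54 and 11.1 in CF. It fell by 1.95 ± 0.40. HEYL, a Notch target of vessel walls, fell by 2.39 ± 0.46. HES5 was at 1.03 CPM or less throughout. The ligands JAG1 (-0.31 ± 0.17) and JAG2 (0.76 ± 0.37) did not pass.

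**Figure D3:**
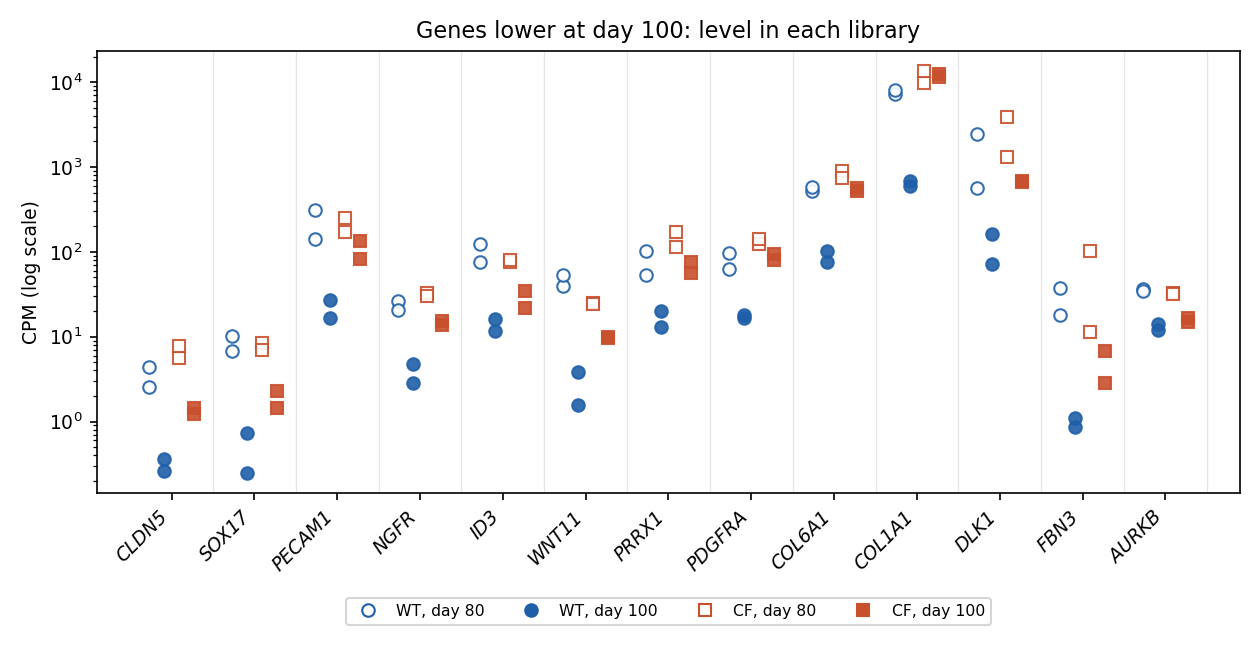
Levels of 13 genes named for their fall, in each of the 8 libraries (y axis, CPM on a log scale), with symbols as above. For most genes the WT libraries of day 100 (filled circles) are the lowest; COL1A1 in CF stays at its day 80 level.

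Fibroblast and matrix genes fell on the mean of the genotypes, and the WT and CF values lay apart. Of 41, 24 fell and none rose, with a median of -1.25, made of -2.14 in WT and -0.40 in CF. Only 2 of the 41 were lower in all 4 day 100 libraries, where 6.04% of all genes were. Leaving out 1 library gave 8 to 25 falls, with 8 without CF day 100 replicate 1 and 9 without WT day 100 replicate 2. COL1A1, the main chain of type I collagen, was at 7183 and 8121 CPM in WT at day 80 and 681 and 599 at day 100. In CF it was at 9807 and 13587 CPM, then 12489 and 11361. The change was -3.58 ± 0.53 in WT and 0.03 ± 0.48 in CF, so the mean fall of 1.78 ± 0.35 (adjusted p = 0.0109) lies between them. The difference of 3.61 ± 0.70, CF minus WT, did not pass in the 20-library fit (adjusted p = 0.118).

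Some stromal genes had lower values in both CF libraries of day 100 than in both of day 80, though no CF change passed on its own. PDGFRA, the growth factor receptor of fibroblasts, was at 98.1 and 62 CPM in WT at day 80 and 16.5 and 18 at day 100, and at 124 and 142 CPM, then 79.1 and 93.8 in CF. It fell by 1.42 ± 0.21 (adjusted p = 0.00405), with changes of -2.21 ± 0.30 in WT and -0.62 ± 0.29 in CF, and held in 15 of 15 alternatives. SFRP2, a secreted Wnt antagonist, changed by -2.71 in WT and -1.04 in CF, and PRRX1, a mesenchymal transcription factor, by -2.24 and -1.10. Both held in 15 of 15. COL14A1 changed by -3.29 in WT and -0.38 in CF, and COL6A1 by -2.63 and -0.60. The CF values of COL14A1 overlapped between the ages. The fibroblast genes summed to 10498 and 7593 CPM in WT at day 100 and to 49436 and 48856 in CF, and the part of these WT levels in the falls was not tested.

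Cartilage followed a similar course. Of 19 genes 5 fell and none rose, with a median of -1.32. COL9A3, a chain of the cartilage collagen type IX, was at 257 and 68.9 CPM in WT at day 80 and 15.8 and 16.9 at day 100, and at 149 and 652 CPM, then 74.6 and 135 in CF. It fell by 2.63 ± 0.53. CYTL1, a secreted cartilage protein, fell by 2.5 ± 0.62, with all 4 day 100 libraries below all 4 of day 80. COL2A1, the main cartilage collagen, changed by -1.98 ± 0.61 and missed the threshold (adjusted p = 0.0615), and ACAN, the proteoglycan aggrecan, by -0.99 ± 0.50. Leaving out either WT library of day 100, or CF day 100 replicate 1, left no cartilage gene called. Of 17 smooth muscle genes, 1 fell, CALD1, by 1.01 ± 0.22, where 5.70% of all genes fell. ACTA2, smooth muscle actin, was at 20.9 CPM in WT day 100 replicate 2 and between 241 and 529 CPM elsewhere, and did not pass.

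Some macrophage genes fell, and so did NGFR, of the basal cell list, by 1.87 ± 0.30. In CF, NGFR went from 32.8 and 30.1 CPM to 13.8 and 15.2. SOX10, a regulator of Schwann cells, was at 4.18 CPM or less and did not pass. Of 15 macrophage genes 3 fell, where 5.70% of all genes fell. Among the 3 was CSF1R, the receptor for the macrophage growth factor, which fell by 1.46 ± 0.27, with -2.51 in WT and -0.41 in CF.

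Genes of developmental signalling pathways were called in both directions. Of 24 genes of the FGF and BMP pathways 9 fell and 1 rose, of 26 Wnt genes 4 fell and 1 rose, and of 17 Hedgehog genes 2 fell and 1 rose, where 5.70% of all genes fell and 3.22% rose. The medians were -0.87, -0.81 and -0.48, against -0.11 over all genes. ID3, a direct target of BMP signals, was at 76.8 and 123 CPM in WT at day 80 and 11.6 and 16.3 at day 100, and at 76.2 and 80.3 CPM, then 21.7 and 34.8 in CF. It fell by 2.15 ± 0.36 (adjusted p = 0.0062), with -2.84 in WT and -1.47 in CF. SMAD6, an inhibitor and target of the same pathway, changed by -1.46 in WT and -1.36 in CF, nearly alike. FGF7, the mesenchymal ligand of FGFR2, fell by 1.49 ± 0.27, while FGFR2, its receptor on epithelium, rose by 1.07 ± 0.25. Without CF day 100 replicate 1, no gene of the FGF and BMP, Notch, Hedgehog, macrophage or cell cycle lists was called lower, and 1 of the Wnt list.

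On the Wnt side, WLS, which carries Wnt ligands to the cell surface, was at 109 and 117 CPM in WT at day 80 and 46.5 and 44.6 at day 100, and at 158 and 128 CPM, then 91.7 and 103 in CF. Its groups did not overlap and it fell by 0.93 ± 0.12 (adjusted p = 0.00266), in 15 of 15 alternatives as well. WNT11, a ligand of planar polarity and vessels, fell by 2.71 ± 0.49. RNF43, which removes Wnt receptors, was the member that rose (0.95 ± 0.27). In the Hedgehog list, the co-receptor GAS1 fell by 1.82 ± 0.34 and DISP1, which releases the ligand, by 0.84 ± 0.18, and the ligand IHH rose by 1.44 ± 0.40. IHH was at 4.88 CPM at most, and SHH, at 1.5 CPM at most, had a change of -0.04 ± 0.47.

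Imprinted growth genes, which are high in fetal tissue, had a median of -1.21 over 13 members, of which 5 fell and none rose. DLK1, a Notch-like protein of growing mesenchyme, was at 2468 and 573 CPM in WT at day 80 and 161 and 72.5 at day 100, and at 3854 and 1310.5 CPM, then 669 and 680.1 in CF. It fell by 2.82 ± 0.59 (adjusted p = 0.0141), with the day 80 value of WT replicate 2, at 573 CPM, below the CF values of day 100. MEST fell by 1.76 ± 0.33, GRB10, which damps insulin-type receptors, by 1.21 ± 0.27, and MAGEL2 by 1.16 ± 0.19. GRB10 and MAGEL2 did not overlap between the ages. IGF2, the fetal growth factor, changed by -2.18 ± 0.69 and missed the threshold (adjusted p = 0.067), with -4.14 in WT and -0.23 in CF. The fetal messenger-binding protein IGF2BP1 (-1.23 ± 0.39) and LIN28B did not pass either. LIN28B was at 6.97 CPM in the library that holds thyroid and at most 0.277 elsewhere. Without CF day 100 replicate 1 no imprinted gene was called.

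The number of cell cycle genes called lower varied with the libraries and the tool. Of 37, 3 fell and none rose, where 5.70% of all genes fell, 14 were lower in all 4 day 100 libraries, and the median was -0.53 (-0.65 in WT and -0.36 in CF). AURKB, a mitotic kinase, was at 36.2 and 34.4 CPM in WT at day 80 and 14.2 and 12 at day 100, and at 33.1 and 31.7 CPM, then 15 and 16.8 in CF. The 4 values of each age lay close together and far from the other age. AURKB fell by 1.23 ± 0.28 (adjusted p = 0.0203). The spindle proteins TPX2 and NUSAP1 fell by 0.73 ± 0.18 and 0.48 ± 0.13. MKI67 was at 148 CPM in the library that holds thyroid and at 16.3 to 57.1 elsewhere, and did not pass (-0.88 ± 0.68). Over all genes 6.04% were lower without overlap. The 6-library fit called 13 of the 37 lower, where it called 9.96% of all genes lower, and in the 20-library model DESeq2 called 12 and edgeR without WT day 80 replicate 1 also 12. None was called in the 20-library model in the 5 fits that left out 1 of the 4 libraries of day 100 or CF day 80 replicate 1.

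Several large falls of thyroid and skeletal muscle genes were those of single libraries. TG itself was called lower at -7.48 ± 1.89 (adjusted p = 0.0295), on a level of 106018 CPM in WT day 80 replicate 2 and of 3.94 CPM or less elsewhere, and without that library its change was 0.01. Of 13 thyroid genes 5 were called lower on those terms, and of 32 skeletal muscle genes also 5. TNNT3, a fast muscle troponin, was at 2647 and 6.53 CPM in CF at day 80, 12.1 and 2.64 in WT at day 80, 2.27 and 5.16 in CF and 1.02 and 0.57 in WT at day 100. Without the 2 libraries of mixed tissue no thyroid gene was called lower in either fit, while 1 muscle gene was called lower in the 18-library fit and 4 in the 6-library fit. The thymus list had 1 call, CD8B, which was at 18.6 and 64.4 CPM in WT and 22.9 and 23.9 in CF at day 80 and stood at 0.924 and 0.228 in WT and 11 and 17.7 in CF at day 100. NES and FBN3, named for the size of their fall, were lower in all 4 day 100 libraries. NES, an intermediate filament gene of precursor cells, was at 161 and 128 CPM in WT at day 80 and 11.7 and 8.94 at day 100, and at 2467 and 144 CPM, then 40.6 and 52.7 in CF. FBN3, a fibrillin of fetal tissue, was at 18.2 and 37.8 CPM, then 1.09 and 0.867 in WT, and at 102 and 11.4 CPM, then 6.71 and 2.86 in CF. NES fell by 4.31 ± 0.74 and FBN3 by 4.20 ± 0.68, and the latter was called in 13 of 15 alternatives.

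Within each genotype the 8-library model called 121 genes in WT, 4 higher and 117 lower (0.634% in all), and none in CF, where 2155 genes had an unadjusted p under 0.05 (11.3%) and DESeq2 called 691. The 20-library model called 1147 in WT (5.71%) and none in CF (smallest adjusted p 0.0837, 2629 genes with an unadjusted p under 0.05, 13.1%). The WT count was 0 in each fit that left out 1 CF library or 1 WT library of day 100, 4067 without WT day 80 replicate 1 and 1153 without replicate 2. The 2 WT libraries of day 100 in these tests may be of 1 animal, and with their counts summed into 1 sample the 8-library model called no gene. With RLE size factors 2 were called. Among the 4 genes higher were PIGR (6.48 ± 0.59), TRIM7, a ubiquitin ligase (2.96 ± 0.28), and EGLN3, an oxygen sensor that hypoxia induces (1.89 ± 0.26). TRIM7 was at 12.2 and 8.53 CPM in WT at day 80 and 73.1 and 88.7 at day 100, and stayed at 8.95 and 9 CPM, then 7.49 and 7.82 in CF. Among the genes lower were ASIP, at 258 and 85.4 CPM in WT at day 80 and 0.443 and 0.776 at day 100, against 255 and 339 CPM, then 145 and 157 in CF, and the collagen COL6A6, with PPARG and EBF2, regulators of fat precursors. The WT libraries of day 100 are those of low stroma, whose part in these calls was not tested.

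No gene was called for a difference between the genotypes in the size of the change, in the 8-library model (smallest adjusted p 0.450, 1482 genes with an unadjusted p under 0.05, 7.76%) or in the 20-library model (smallest adjusted p 0.0941, 2031 genes, 10.1%), while DESeq2 called 485. Without the 2 libraries of mixed tissue, 201 genes were called (1.03%), 148 of them with the higher change in CF. COL1A1 was 1 of them, at a difference of 3.30 (adjusted p = 0.0122), with CSF1R at 2.44, PDGFRA at 1.79 and ASIP at 7.51, and TRIM7 at -2.96. That count has 1 day 80 library a genotype behind it, and the WT pair of day 100 may be of 1 animal. Of the 648 genes called higher in the 20-library model, 643 had the same sign in both genotypes, and the median was 1.26 in WT and 1.26 in CF. Of the 1145 lower, 1114 had the same sign, but the median was -2.37 in WT and -0.94 in CF, and 995 had the larger change in WT. The sign is partly fixed by the call on the mean. Over all genes, the correlation between the WT and CF changes was 0.173, a description across genes, which are not replicates.

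**Figure D4:**
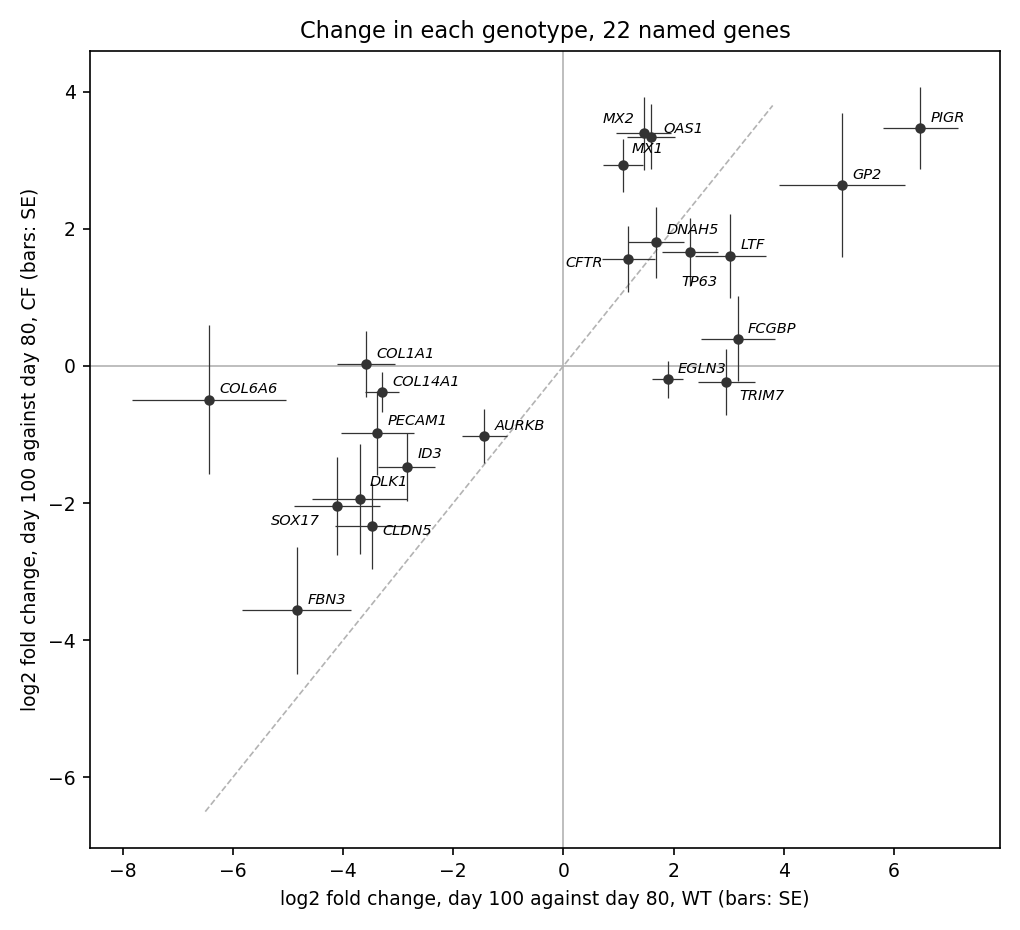
Change of 22 named genes from day 80 to day 100 in WT (x axis) and in CF (y axis), as log2 differences of the 20-library model with SE bars; the dashed line marks equal change. TP63 and DNAH5 lie near the line, while PIGR, FCGBP and TRIM7 lie below it, with the larger change in WT. MX1, MX2 and OAS1 lie above it, and COL1A1, COL14A1 and COL6A6 lie nearer 0 in CF than in WT.

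The 12 libraries of the other ages entered the changes above only through the estimate of the spread, and gave the direction of the same genes in other samples. Days 120 and 147 were set against day 65 with genotype as a covariate. Of the genes higher at day 100, 557 of 645 tested (86.4%) were also higher at days 120 and 147, with a median of 0.91, and of the genes lower, 939 of 1144 (82.1%) were lower, with a median of -0.68. Over all genes 50.3% were higher and the median was 0.01. Day 65 also held libraries of mixed tissue: CF replicate 2 had 16 liver genes at a summed 20276 CPM, against 77.5 to 112 in the other 3, and 11 erythroid genes at 976 CPM, and WT replicate 2 had 32 skeletal muscle genes at 1322 CPM, against 54.4 to 64.4, and 12 thymus genes at 351 CPM. With those 2 left out, the means of log2(CPM + 1) had the same direction for 80.9% of the 648 and 77.4% of the 1145. The mean of PIGR at days 65 and 80 was 2.21 ± 2.19 and 3.53 ± 0.817 CPM (SD, n = 4 at each age), followed by 195 ± 208 at day 100, 509.6 ± 173 at day 120 and finally 1358 ± 262 at birth. LTF went from 8.99 ± 5.09 at day 80 to 242 ± 161 at day 147, and AURKB from 33.8 ± 1.91 to 5.41 ± 1.8. FBN3 was at 31 ± 9.47 CPM at day 65 and 0.827 ± 0.223 at day 147. Each of these means at day 147 lay farther from day 80 than the mean at day 100 did.

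The means of day 65 were set beside those of day 80, whose 4 libraries include the 2 of mixed tissue with the lowest epithelial levels. Of the 648 genes higher at day 100, 538 (83.0%) had a higher mean at day 65 than at day 80, against 50.5% of all genes, and 613 (94.6%) were higher at day 100 than at day 65, against 44.4% of all genes. Without the 2 day 80 libraries of mixed tissue the first share was 60.6% (393 genes), against 53.3% of all genes, and without the 2 of day 65 as well it was 63.1%, against 51.2%. TP63 had 113 ± 17.5 CPM at day 65 and 32.4 ± 17.4 at day 80, then 125 ± 8.21 at day 100 and 117 ± 44.2 at birth, so its levels at days 65 and 100 were alike within their spread. DNAH5 was at 99.1 ± 5.67 at day 65 and 60.4 ± 29.1 at day 80, and at 201 ± 18.9 at day 100. In the day 80 libraries other than those of mixed tissue, TP63 was at 35.8 and 55.4 CPM, below all 4 of day 65 (92.9 to 134), and DNAH5 was at 80.2 and 88.8 CPM, just below the lowest of day 65 (91.5). CLDN5 had its highest mean at day 80 (5.1 ± 2.17), with 1.98 ± 0.523 at day 65 and 2.27 ± 1.2 at day 147. A gene called between 2 ages is more often extreme at one of them, and no test was made of the day 80 level. MX1 and OAS1 had their highest means at day 100: OAS1 was at 112 ± 51.9 CPM there, 44.3 ± 8.41 at day 120 and 70.5 ± 13 at day 147.

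**Figure D5:**
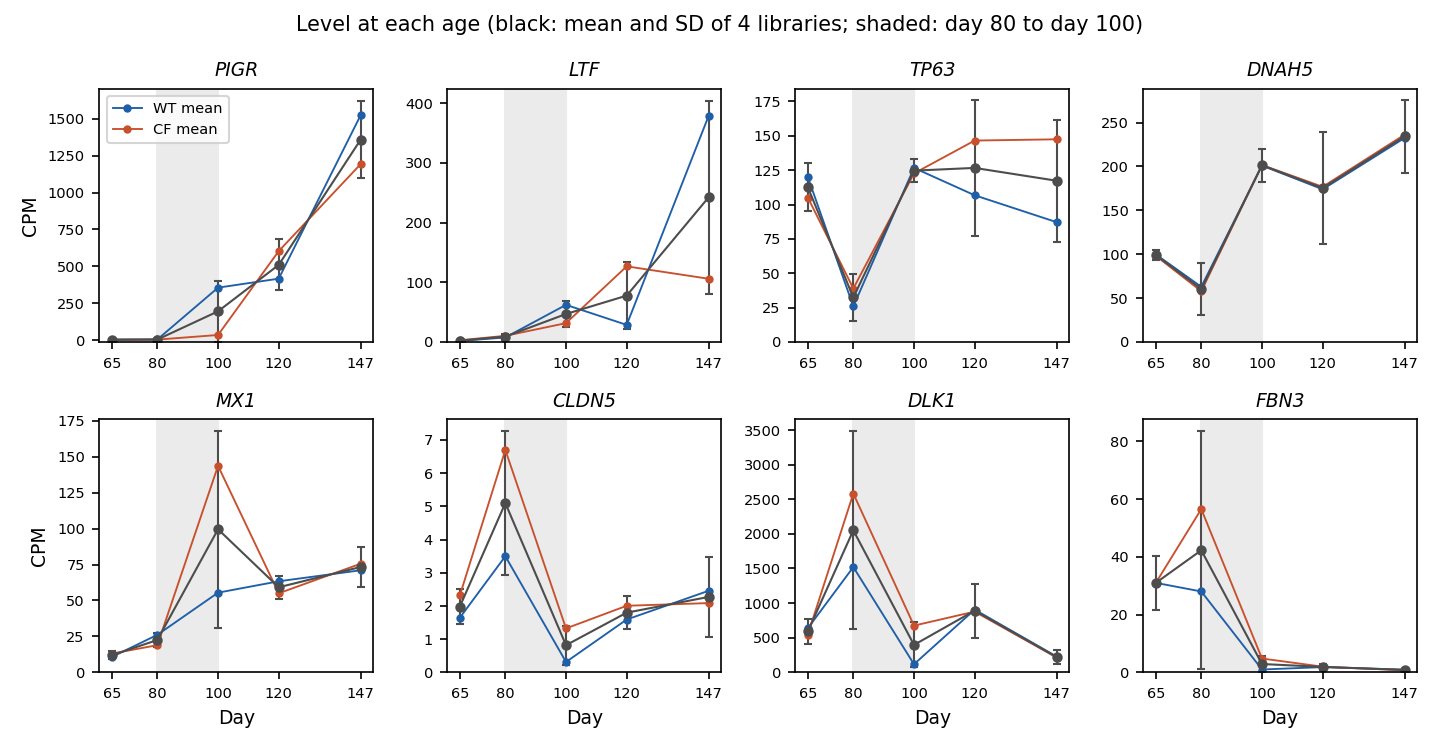
Mean level of 8 genes at each of the 5 ages (y axis, CPM; x axis, day), black points and bars giving mean and SD of 4 libraries, blue the WT mean and red the CF mean of 2 libraries each; the shaded span runs from day 80 to day 100. PIGR and LTF keep rising to day 147, TP63 and DNAH5 have lower means at day 80, which includes the 2 libraries of mixed tissue, than at days 65 and 100, and MX1 is highest at day 100.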

How the data were processed

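Bulk RNA-seq of sheep tracheal tissue was deposited by the authors as raw counts per gene, in 1 table for WT and 1 for CF. Per the labels' protocols, RNA was extracted from frozen tissue with TRIzol. Per the submitters' processing notes, the tools were STAR 2.6 and featureCounts 1.6.3 of Subread. The genome build, annotation, strand setting and read pairing were not given in the sources used here. Per the file headers, each table also gives a gene length, which did not enter the tests or the CPM. It gave each library a slope of log2(CPM + 1), centred for each gene, on log2 length. In CF the slope was -0.064 and -0.077 at day 80 and 0.066 and 0.064 at day 100. In WT it was -0.178 and 0.084 at day 80 and -0.141 and -0.087 at day 100. Its part in the changes of long genes was not tested.

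Of 24478 genes, 8432 carry only an identifier, with a symbol found for 501 of them in RefSeq's ARS-UI_Ramb_v3.0 gene table. Of 776 members of 39 gene lists, 747 matched. Counts were tested with edgeR 4.0.16 (TMM, filterByExpr, robust glmQLFit and glmQLFTest) in R 4.3.3, with Benjamini-Hochberg adjustment over all genes tested and a threshold of 0.05. DESeq2 1.42.0 was an alternative. All adjusted p-values and standard errors in the results are edgeR's unless DESeq2 is named. The scripts were tested on simulated data. CPM are counts scaled to the TMM-adjusted library total. Raw totals of 48957666 to 87651829 limit the precision of genes near 0 only, and no interval for counting error is given.

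Genes were named as follows: a list of key genes, the 15 largest changes a direction without overlap among genes with symbols above a mean log2 CPM of 1, up to 4 called members of each list a direction, the members at the ends of a list, and genes called within WT. The 8-library fit called no gene, so the 20-library fit took its place in this rule. FOXC1, NOTCH4 and other named list members outside the rule were chosen after their values were seen. A few genes are not reported here. The comparison, its members and the lists were chosen with earlier results of these data known. Same-numbered libraries deviated together in WT (correlation 0.486) and not in CF (-0.162). Nothing in the labels pairs them, so the planned fit had no replicate block. Whether the numbers mark a pairing is not known. Replicate pairs differed by far more than sampling noise (chi-square per gene of 39.3 to 1744). No sequence is printed.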

Additional observations from a re-analysis of the deposited data

Results flagged for a closer look

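For each list, the scores of the 4 libraries of an age were checked for 1 that stood far from the other 3 (Dixon's test of the gap to the nearest against the whole range). Of 76 such sets 10 were over the limit, and chance gives about 1 in 20. Scores are means of log2(CPM + 1) centred for each gene.

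WT day 80 replicate 2 stood apart in 4 lists: thyroid (5.31, nearest other library -0.78), thymus (2.46, nearest -0.20), lymphocytes (1.94, nearest -0.22) and the unfolded protein response (0.91, nearest -0.14). CF day 80 replicate 1 stood apart in skeletal muscle (6.92, nearest -0.75) and lung alveoli (-0.75, nearest -0.11). At day 100, WT replicate 2 stood apart in smooth muscle (-2.40, nearest 0.21) and ionocytes (0.29, nearest 0.15). CF day 100 replicate 1 stood apart in hypoxia (-0.12, nearest 0.09) and CF day 100 replicate 2 in regulators of multiciliated cells (0.14, nearest 0.44).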

How the results depend on the processing

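The count of called genes depended on the libraries and on the tool, and the count within WT also on the size factors. The 8-library fit called none with RLE size factors, with no filter on low counts, with a replicate block and with the WT day 100 pair summed. It called 997 genes higher and 1659 lower by DESeq2, 8 and 63 with 1 coefficient per group, 648 and 1145 with all 20 libraries, and 1577 and 1940 without the 2 libraries of mixed tissue. With the CF numbers of the block crossed, an alternative chosen after seeing the data, 0 and 1 were called. Leaving out 1 library gave 0 to 1046 higher and 0 to 1712 lower, the most without WT day 80 replicate 2. The 121 genes of WT became 2 with RLE, 2334 by DESeq2, 1147 with all 20 libraries, 4756 without the 2 libraries of mixed tissue, and 0 with either replicate block or the summed pair, with 0 to 4067 when 1 library was left out. The 0 of CF became 691 by DESeq2 and 259 without the 2 libraries, with 0 to 63 when 1 was left out. The difference between genotypes became 485 and 201, with 0 to 3145.

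In the 20-library fit, whose alternatives were all chosen after seeing the data, 648 and 1145 became 367 and 723 with a replicate block, 1399 and 2278 by DESeq2, 138 and 445 without the 2 libraries, 41 and 183 without these and the 2 of mixed tissue at day 65, and 41 and 153 with pairs of a shared identifier summed. Leaving out 1 library gave 33 to 1235 higher and 108 to 1433 lower. Of 96 genes called and named, 16 were called in all 8 of these, 42 without the 2 libraries and 76 with the block. Where a fit leaves 1 library in a group, that library is assumed to vary like the others.

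The direction turned for 10 named genes, none of them stable. Without the 2 libraries, the 8- and 20-library values were -0.034 and -0.015 for MCIDAS, 0.49 and 0.52 for SCNN1B, 0.96 and 0.98 for SCNN1G, 0.37 and 0.39 for MKI67, -0.11 and -0.091 for RSPH9, 0.75 and 0.94 for SOX10, and 0.16 for TG in the latter. Without 4 libraries they were -0.033, 0.50, 0.96, 0.37, -0.11, 0.92 and 0.14. With the replicate block SCNN1G was at 0.69 and SHH at 0.087, and with the crossed one SCNN1G at 0.61, SOX10 at 0.0049 and SHH at 0.083. With pairs summed, SCNN1G was at 0.25, TG at 0.0015 and SHH at 0.053. Leaving out 1 library gave, in the 8- and the 20-library fit, -2.33 to 0.56 and -1.99 to 0.63 for SCNN1B, -2.35 to 1.42 and -1.42 to 1.39 for SCNN1G, -0.90 to 2.57 for FOXI1 in the former, -1.24 to 0.31 and -1.25 to 0.29 for MKI67, -0.17 to 0.37 and -0.16 to 0.51 for LYZ, -0.68 to 0.27 and -0.51 to 0.50 for SOX10, -14.9 to 0.23 and -8.25 to 0.010 for TG, and -0.29 to 0.44 and -0.32 to 0.58 for SHH. The cause was not tested. The share of called genes with the same direction at the other ages was 83.6%, and 84.2% to 84.3% under 3 alternatives.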

Other observations

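Some genes named for their size belong to no list described above. NWD1 rose by 2.21 ± 0.41, and was at 28.4 and 25.9 CPM in WT at day 80, 75.3 and 105 in WT at day 100, 14.4 and 24.7 in CF at day 80 and 162 and 91.7 in CF at day 100. ADGRF1, an adhesion receptor, rose by 2.58 ± 0.57, and MAOB, a mitochondrial amine oxidase, by 2.26 ± 0.47. The complement gene C2 fell by 3.08 ± 0.52, with 0.222 and 0.0684 CPM in WT at day 100 and 3.27 and 2.1 in CF.

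MEP1B, a membrane metalloprotease, was at 19.3 and 16.4 CPM in the WT libraries of day 100 and at most 1.86 in the other 6.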
